A study of Mus musculus with 6 samples.

Results

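Pcp4l1, Rfx4 and Npr2 are 3 genes whose array signal was far lower in SRSF1HKO hepatocytes than in WT hepatocytes, and they were read here beside 7 relatives from the same gene families, Pcp4, Rfx1, Rfx2, Rfx3, Rfx5, Npr1 and Npr3. The members were found as array rows annotated with 1 of these symbols and no other gene, with the brightest row kept for each gene, which gave 10 genes of 19123 tested. Pcp4l1, Rfx4 and Npr2 were chosen because of this very contrast, so their values are a description with no test. The relatives were chosen by family name, and their tests are given. SRSF1HKO mice had a hepatocyte-specific knockout of SRSF1, an RNA-binding protein of the SR family known for its role in splicing. WT mice were their wild type counterparts, and both groups were C57BL/6 mice aged 3 months whose untreated hepatocytes were collected by perfusing the liver. The labels name the cells primary hepatocyte cultures. The sources used here name neither what drove the deletion nor how long the cells were in culture. Each group had 3 samples with 1 mouse exon array each, and the title of each sample carries a number of its own whose meaning the labels do not give. SRSF1HKO replicate 1 has a number between those of WT samples, whereas SRSF1HKO replicates 2 and 3 have higher numbers than any WT sample. Nothing in the labels says that the samples came from separate animals, so every p-value here rests on the spread among the samples alone, and that spread may be technical.

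Pcp4 is a small protein with an IQ motif that binds calmodulin, the calcium sensor, and is best known from Purkinje neurons. Pcp4l1 is its closest relative. The RFX proteins are transcription factors with a winged-helix DNA-binding domain that recognises the X-box. Rfx1, Rfx2 and Rfx3 act on genes of the cilium, Rfx4 is best known from the developing brain and the testis, and Rfx5 binds the promoters of MHC class II genes together with Rfxap and Rfxank. The natriuretic peptide receptors Npr1 and Npr2 are membrane guanylyl cyclases that make the messenger cGMP, Npr1 on binding the atrial and brain peptides and Npr2 on binding the C-type peptide. Npr3 lacks a cyclase and clears these peptides.

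The 250 bases before the annotated start sites of Pcp4l1, Rfx4 and Npr2 are shown because these genes had far lower signal in the same knockout arrays. They are RefSeq sequences of build GRCm38.p6 on the gene's strand, 5′ to 3′, and capitals mark a CCAAT box, read in either direction. The window of Pcp4l1 is chr1:171196269-171196518 on the minus strand. The windows of Rfx4 are chr10:84755798-84756047 and chr10:84837898-84838147 and that of Npr2 is chr4:43631685-43631934, on the plus strand.
Pcp4l1: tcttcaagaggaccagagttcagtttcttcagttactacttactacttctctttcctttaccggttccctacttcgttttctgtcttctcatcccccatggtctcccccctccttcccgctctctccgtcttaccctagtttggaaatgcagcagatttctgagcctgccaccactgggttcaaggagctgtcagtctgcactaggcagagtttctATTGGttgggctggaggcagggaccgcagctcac
Rfx4, upstream start: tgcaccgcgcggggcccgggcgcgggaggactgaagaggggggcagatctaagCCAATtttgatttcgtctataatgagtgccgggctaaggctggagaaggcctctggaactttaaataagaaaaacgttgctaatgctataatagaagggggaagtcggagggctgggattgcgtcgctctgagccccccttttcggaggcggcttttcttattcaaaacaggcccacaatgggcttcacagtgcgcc
Rfx4, downstream start: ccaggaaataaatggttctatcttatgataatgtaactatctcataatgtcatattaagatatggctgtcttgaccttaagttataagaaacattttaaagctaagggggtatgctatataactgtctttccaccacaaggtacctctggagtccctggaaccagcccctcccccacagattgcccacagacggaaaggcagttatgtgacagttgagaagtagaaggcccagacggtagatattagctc
Npr2: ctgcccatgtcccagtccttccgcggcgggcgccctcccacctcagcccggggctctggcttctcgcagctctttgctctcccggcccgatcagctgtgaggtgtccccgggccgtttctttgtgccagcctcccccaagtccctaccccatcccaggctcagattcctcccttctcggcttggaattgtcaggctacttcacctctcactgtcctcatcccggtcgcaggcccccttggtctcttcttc

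These windows were searched on both strands for 5 motifs, the E-box CACGTG, the letters GTTGCC of an RFX site, the CCAAT box CCAAT, the TATA box TATAAA and the GC box GGGCGG. Pcp4l1 held a CCAAT box beginning 34 bases before the start, and the upstream start of Rfx4 held one 197 bases before it. The downstream start of Rfx4 and the start of Npr2 held none of the 5. Over all 32851 windows of the RefSeq table, 33.8% held CCAAT, 6.02% CACGTG, 10.4% GTTGCC, 12.4% TATAAA and 32.7% GGGCGG. All 10 genes had a window there. Among the relatives, CCAAT was found before Rfx1, Rfx2, Rfx5, Npr1 and Npr3, so it did not set Pcp4l1 and Rfx4 apart. GGGCGG was found before Rfx1, Rfx2, Rfx3 and Npr1. GTTGCC was found before Rfx2 alone, 116 bases from its start, and none of the relatives' windows held CACGTG or TATAAA. The GC content was 51.6% before Pcp4l1, 54.8% and 42.0% before the Rfx4 starts and 64.4% before Npr2, where the median window had 52.4%.

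The arrays did not share a scale and 1 of them stood apart, which touches every value below. The median deposited intensity over all rows was 28.8, 18.6 and 20.8 in SRSF1HKO replicates 1, 2 and 3, against 31.8, 39.8 and 25.6 in WT replicates 1, 2 and 3. The median gene accordingly had a log2 difference of -0.44 on the deposited values and of -0.01 after quantile normalization. SRSF1HKO replicate 1 had the sex-linked signal of a male (Xist 9.95, Eif2s3y 130), whereas the other 5 arrays had that of females (Xist 2122 to 3532, Eif2s3y 2.27 to 7.78). Differences below are SRSF1HKO minus WT on a log2(intensity + 16) scale after quantile normalization, with their standard error (3 against 3 arrays), and are also given without that array where it matters. A gene counts as having risen or fallen where limma's Benjamini-Hochberg adjusted p was under 0.05 both after quantile normalization and on the deposited values, in 1 direction. By this rule 1.40% of all genes were lower and 0.842% higher, 2.24% together. The targeted gene Srsf1 read 242, 371 and 386 in SRSF1HKO arrays against 666, 667 and 607 in WT arrays, with a difference of -0.53 ± 0.18 (limma adjusted p = 0.185) after quantile normalization and -0.95 on the deposited values (limma adjusted p = 0.0100), so it was lower in every knockout array but met 1 of the 2 thresholds.

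Pcp4l1 had the largest difference of the 10 genes. Its intensity was 21.2, 46.7 and 43.2 in SRSF1HKO replicates 1, 2 and 3, against 462, 897 and 565 in WT replicates 1, 2 and 3. The groups did not overlap, and the highest knockout array lay far below the lowest WT array. The mean was 37.0 ± 13.8 in SRSF1HKO and 641 ± 227 in WT (SD, n = 3 each), which is 5.77% of the WT mean. This share, and those of Rfx4 and Npr2 below, are on the deposited values and include the unequal scales of the arrays. The difference was -3.19 ± 0.33, and -2.91 ± 0.22 without SRSF1HKO replicate 1. Its rank within an array does not depend on the array's scale, and Pcp4l1 stood at the 39.0th, 79.8th and 75.4th percentile of all rows in SRSF1HKO replicates 1, 2 and 3, against the 97.5th, 98.8th and 98.6th in WT. The lowest of these belonged to SRSF1HKO replicate 1, where Pcp4l1 lay at -1.10 log2 units from the mean of the other knockout arrays.

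Rfx4 was low in all knockout arrays, with similar values among them. It read 30.7, 22.0 and 17.2 in SRSF1HKO replicates 1, 2 and 3, against 201, 229 and 143 in WT replicates 1, 2 and 3. All knockout arrays were below all WT arrays. The mean of 23.3 ± 6.86 in SRSF1HKO was 12.2% of the mean of 191 ± 43.7 in WT (SD, n = 3 each). The difference was -2.0 ± 0.13, and -2.04 ± 0.135 without SRSF1HKO replicate 1. Its percentile among all rows was 52.4, 56.0 and 43.0 in the knockout arrays and 93.7, 93.8 and 93.2 in the WT arrays. In the knockout Rfx4 was thus near background, and the size of its difference is uncertain. The size of the difference moved with the pseudocount. With 1 in place of 16 it was -2.50, and with 64 it was -1.28. Unlike Pcp4l1 and Npr2, Rfx4 in SRSF1HKO replicate 1 was close to the other knockout arrays, at a difference of 0.07 from their mean. The part of the background level in this closeness was not tested.

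Npr2 was the most uneven of the 10 genes in the knockout. It read 41.6, 178 and 237 in SRSF1HKO replicates 1, 2 and 3, against 958, 986 and 619 in WT replicates 1, 2 and 3. The groups did not overlap, and SRSF1HKO replicate 1 was far below both other knockout arrays. The mean was 152 ± 100.02 in SRSF1HKO and 854 ± 204 in WT (SD, n = 3 each), which is 17.8% of the WT mean. The difference was -2.20 ± 0.52 with all arrays and -1.49 ± 0.12 without SRSF1HKO replicate 1. In replicate 1 Npr2 lay at -2.26 log2 units from the mean of the other knockout arrays, the 0.0366th percentile among all genes tested, where the middle 90% of genes lay between -0.83 and 0.65. Since this contrast chose Npr2, its standing by the rule above is a description and not a test result. It met the threshold on the deposited values and not after quantile normalization, so it is not counted as having fallen. That status turned on the setting, because both thresholds were met with a pseudocount of 64 and without SRSF1HKO replicate 1 or 3.

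The choice of these 3 genes can be placed by size. Named genes were ranked on the deposited values if they met the threshold there with every knockout array below every WT array. Among these the 3 had the 4th, 9th and 12th largest decreases, at -3.61 for Pcp4l1, -2.59 for Npr2 and -2.39 for Rfx4. The ranking includes Xist in 7th place (-2.70), which was low in the male array. Thrsp, just before Rfx4, had -2.40. The genes just outside were Ppp1r3g at -2.32 and Slc17a8 at -2.25. Groups with the knockout below WT on the deposited values were seen for 28.0% of all genes, and groups with the knockout above WT for 1.69%.

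**Figure D1:**
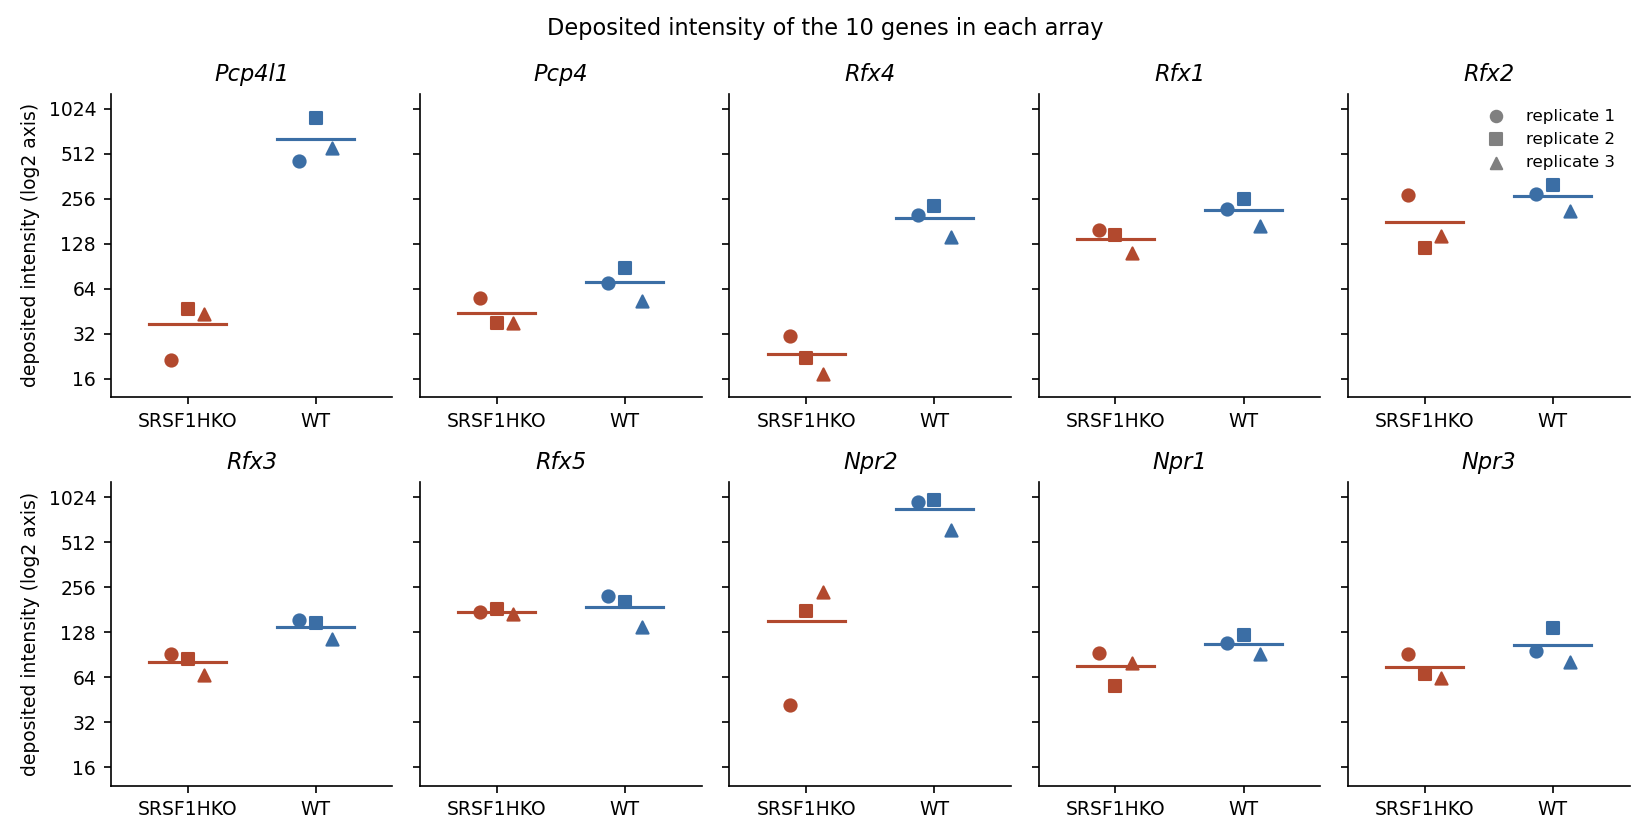
Deposited intensity (log2 axis) of the 10 genes in each of the 3 SRSF1HKO and 3 WT arrays, with symbols for the replicate number and bars for the group means. Pcp4l1, Rfx4 and Npr2 lie far lower in every SRSF1HKO array, with Npr2 at 41.6 in SRSF1HKO replicate 1, while the relatives differ less. Every SRSF1HKO array is below every WT array for Rfx1 and Rfx3, an order that 28.0% of all genes had.

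None of the 7 relatives passed the test (0 of 7, where 2.24% of all genes passed). Their differences after quantile normalization ran from -0.24 for Rfx3 to 0.38 for Rfx5 with a median of -0.09, beside a median of -0.01 over all genes, and 4 were below 0. On the deposited values all 7 were below 0, from -0.69 to -0.07, with a median of -0.53 where the median gene had -0.44. Their adjusted p-values in limma ran from 0.225 to 0.994 after quantile normalization and from 0.118 to 0.825 on the deposited values, so that each was also outside the threshold in either fit alone. After quantile normalization alone 4.14% of all genes passed (1.41% lower, 2.73% higher), and on the deposited values alone 7.79% did (6.86% lower, 0.931% higher).

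Pcp4, the calmodulin-binding relative of Pcp4l1, had close values in both groups. It read 55.8, 37.8 and 37.5 in SRSF1HKO arrays and 70.2, 88.7 and 52.9 in WT arrays. The difference was -0.13 ± 0.12 (95% interval -0.41 to 0.15, limma adjusted p = 0.748). The deposited values overlapped between groups. After quantile normalization the knockout values lay just below those of WT, at 6.12, 6.12 and 6.01 against 6.21, 6.26 and 6.16 log2 units, an order that 10.1% of all genes also had. Within each array, Pcp4l1 over Pcp4 stood at -4.55, -2.85 and -2.95 log2 units from the WT mean of that ratio in SRSF1HKO replicates 1, 2 and 3, against -0.44, 0.18 and 0.26 in WT. Such a ratio, taken here on the deposited intensities with no pseudocount, does not depend on the scale of the array. It is not on the scale of the differences above. Since Pcp4l1 was chosen for its low values here, the ratio is a description.

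Among the RFX relatives, Rfx1 and Rfx3 had small differences. Rfx1, a broadly expressed member, read 158, 146 and 111 in SRSF1HKO arrays and 219, 255 and 168 in WT arrays, with a difference of -0.11 ± 0.14 (95% interval -0.42 to 0.20, limma adjusted p = 0.821). Rfx3, a regulator of ciliary genes, read 91.9, 84.1 and 66.2 in SRSF1HKO arrays and 155, 148 and 115 in WT arrays, with a difference of -0.24 ± 0.15 (95% interval -0.58 to 0.09, limma adjusted p = 0.537). Both had all knockout arrays below all WT arrays on the deposited values, an order that 28.0% of all genes also had. After quantile normalization their groups overlapped.

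Rfx2, close kin of Rfx3, depended on SRSF1HKO replicate 1. It read 270, 120 and 144 in SRSF1HKO replicates 1, 2 and 3, against 275, 319 and 214 in WT replicates 1, 2 and 3. On this scale replicate 1 lay within the range of WT and the other knockout arrays were below it. After quantile normalization replicate 1 was above every WT array, at 8.43 log2 units against 7.87 to 7.94 in WT, and the other knockout arrays were below WT, at 7.44 and 7.61. The difference was -0.09 ± 0.235 with all arrays (95% interval -0.62 to 0.45, limma adjusted p = 0.938). Without SRSF1HKO replicate 1 it was -0.40 ± 0.11, and limma's adjusted p was 0.0308 after quantile normalization and 0.0272 on the deposited values, which meets both thresholds in a comparison where 6.24% of all genes did. Without SRSF1HKO replicate 2 or 3 the sign turned (0.11 and 0.02), with no call.

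Rfx5, the MHC class II factor, was the relative with the highest difference. It read 175, 182 and 170 in SRSF1HKO arrays and 225, 204 and 140 in WT arrays, which overlap. After quantile normalization the knockout arrays were all higher, at 7.67, 7.91 and 7.81 log2 units against 7.61, 7.31 and 7.35 in WT, an order found for 11.6% of all genes. The difference was 0.38 ± 0.14 (95% interval 0.06 to 0.70, limma adjusted p = 0.225), and on the deposited values it was of the other sign, -0.07. Without SRSF1HKO replicate 1 it was 0.46 ± 0.13 (limma adjusted p = 0.0312), with an adjusted p of 0.847 on the deposited values, so it met 1 of the 2 thresholds. Ratios within an array were again taken on the deposited intensities with no pseudocount. Rfx4 over each of the 4 relatives averaged from -2.26 (over Rfx3) to -2.97 (over Rfx5) log2 units from the WT mean in the knockout.

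The other natriuretic peptide receptors had nearly equal values in both groups after quantile normalization. Npr1, the receptor of the atrial peptide, read 92.9, 56.2 and 79.4 in SRSF1HKO arrays and 108, 122 and 91.6 in WT arrays, with a difference of 0.01 ± 0.14 (95% interval -0.30 to 0.31, limma adjusted p = 0.994). Npr3, the clearance receptor, read 92.0, 67.5 and 63.4 in SRSF1HKO arrays and 96.6, 138 and 81.1 in WT arrays, with a difference of 0.02 ± 0.13 (95% interval -0.27 to 0.32, limma adjusted p = 0.969). On the deposited values they had -0.43 and -0.41, close to the median gene. The groups overlapped for both genes on both scales. On the deposited intensities with no pseudocount, Npr2 over Npr1 stood at -4.13, -1.31 and -1.39 log2 units from the WT mean of that ratio in SRSF1HKO replicates 1, 2 and 3, against 0.17, 0.04 and -0.21 in WT. The knockout was lower in every array, by far the most in replicate 1.

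**Figure D2:**
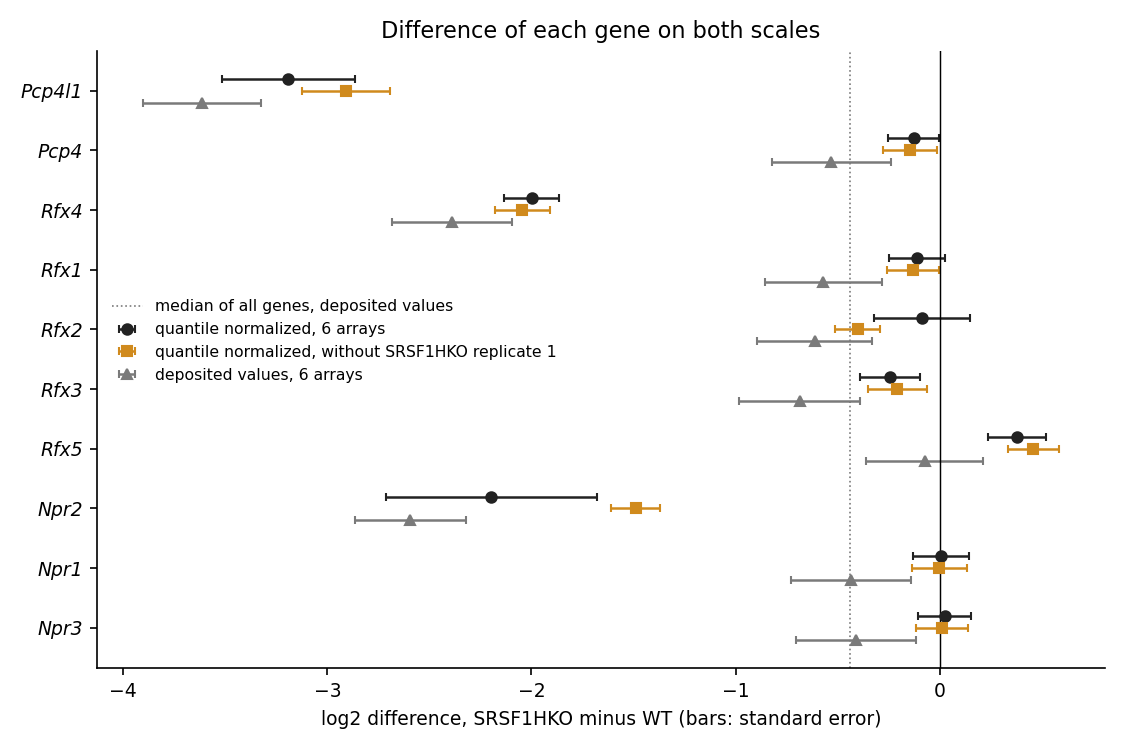
Log2 difference, SRSF1HKO minus WT, of the 10 genes with standard errors, after quantile normalization with 6 arrays and without SRSF1HKO replicate 1, and on the deposited values; the dotted line is the median of all genes on the deposited values (-0.44). Pcp4l1, Rfx4 and Npr2 stand at -3.19, -2.0 and -2.20, whereas the relatives lie between -0.24 and 0.38 after quantile normalization.

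The genes nearest in pattern were taken as those with the smallest root mean square difference from each of the 3 genes over the 6 arrays, on quantile-normalized log2 values centred on each gene's mean. The nearest to Pcp4l1 was Elovl3, an elongase of very long chain fatty acids, at 0.34 log2 units. Elovl3 read 31.2, 34.4 and 25.9 in SRSF1HKO arrays and 430, 675 and 335 in WT arrays. The next were Npr2 (0.71), Thrsp (0.74), Rfx4 (0.77) and Slc17a8 (0.77), so Pcp4l1 had 1 close neighbour and the others were less than 1 log2 unit away but clearly farther.

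Rfx4 had closer neighbours. Rab30, a small GTPase, was at 0.22 log2 units from it, as were Slc17a8, a vesicular glutamate transporter, and Nxpe2, with, Retsat, the retinol saturase, at 0.24 and Plekhb1 at 0.28. Rab30 read 162, 127 and 105 in SRSF1HKO arrays and 716, 658 and 434 in WT arrays. Retsat read 722, 1287 and 1083 in SRSF1HKO arrays and 4708, 4605 and 3862 in WT arrays. All 5 had differences between -1.82 and -1.59. Their standard deviations over the knockout arrays ran from 0.17 for Rab30 to 0.39 for Slc17a8 log2 units, where Rfx4 had 0.16.

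The neighbours of Npr2 shared its low value in SRSF1HKO replicate 1, which follows from choosing them for likeness over these same arrays. They were Thrsp, a nuclear protein of lipogenesis (0.28), the carboxylesterase Ces3b (0.37), the organic anion transporter Slco1a1 (0.40), the sulfotransferase Sult2a8 (0.43) and Cyp7b1, an enzyme of bile acid and steroid hydroxylation (0.44). Thrsp read 188, 478 and 781 in SRSF1HKO replicates 1, 2 and 3, against 2612, 2955 and 1508 in WT. Slco1a1 read 393, 1935 and 1558 in SRSF1HKO replicates 1, 2 and 3, against 4350, 4706 and 3865 in WT. Of the 3 genes themselves, Pcp4l1 and Npr2 were 0.71 apart, Pcp4l1 and Rfx4 0.77 and Rfx4 and Npr2 0.81.

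**Figure D3:**
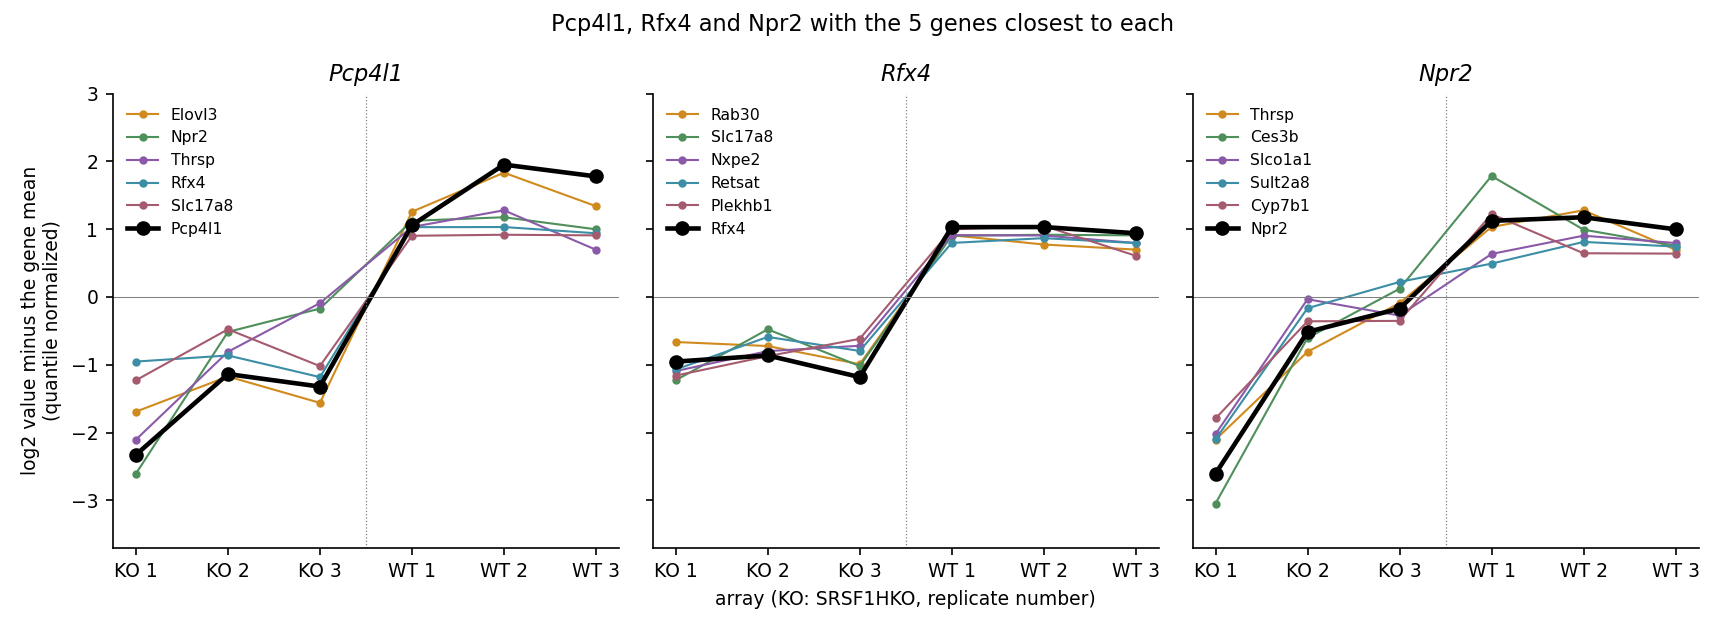
Quantile-normalized log2 values of Pcp4l1, Rfx4 and Npr2 (black) and of the 5 genes nearest to each, centred on the mean of each gene over the 6 arrays; lines join the values of 1 gene and imply no order of the replicates. The Npr2 group is lowest in SRSF1HKO replicate 1, at -3.05 to -1.79, while the 6 genes of the Rfx4 group lie between -1.23 and -0.48 over all SRSF1HKO arrays. The neighbours were chosen for likeness over these arrays, so the shared shapes follow from that choice.

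Since SRSF1HKO replicate 1 was the male array, genes known to differ between the sexes in mouse liver were read beside these values. Of 7 measured female-biased genes 3 fell, Sult3a1 (-5.03 ± 0.51), Cyp17a1 (-1.14 ± 0.21) and Acot3 (-1.53 ± 0.32), and none rose. Of 6 measured male-biased genes 2 fell, Elovl3 (-2.95 ± 0.20) and Cyp7b1 (-1.67 ± 0.36), and none rose. Of the 6 differences 5 were below 0 and 1 was above it, at 0.96. That gene had every knockout array above WT after quantile normalization, an order found for 11.6% of all genes. The summed quantile-normalized intensity of the male-biased list was 4076, 7078 and 7727 in SRSF1HKO replicates 1, 2 and 3, against 8609, 8606 and 8417 in WT. That of the female-biased list was 2123, 3134 and 4355 in SRSF1HKO replicates 1, 2 and 3, against 8840, 8581 and 8021 in WT. The male-biased list holds Slco1a1 and Cyp7b1, which were named above as neighbours of Npr2 for a likeness that includes replicate 1. The sums of both lists were thus lowest in the male array. Without it 4 female-biased and 3 male-biased genes were lower and none higher, in a comparison where 6.24% of all genes were called, against 2.24% with all arrays. The part of sex in the values of Npr2 and Pcp4l1 was not tested.

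The partners of the RFX proteins did not pass the test. Of 5 measured RFX relatives and partners 0 rose and 0 fell, with a median difference of 0.01. Rfx7, a further RFX factor, read 115, 259 and 292 in SRSF1HKO replicates 1, 2 and 3, against 443, 497 and 326 in WT. The knockout lay below WT in every array, as for 28.0% of all genes on the deposited values. The difference was -0.58 ± 0.33 (limma adjusted p = 0.485). Without SRSF1HKO replicate 1 it was -0.13, since this array lay at -1.37 from the others. Rfxank, the ankyrin subunit of the Rfx5 complex, read 188, 226 and 240 in SRSF1HKO arrays and 317, 311 and 217 in WT arrays, which overlap, with a difference of 0.09 ± 0.15 (limma adjusted p = 0.884).

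Among genes under the control of RFX proteins, some of the MHC class II list passed and none of the cilium list did. Of 27 measured cilium genes, 0 rose and 0 fell, with a median of 0.01 and a range from -0.47 to 0.61. The transport particle genes named from this list were Ift20 (0.14 ± 0.10) and Ift52 (-0.37 ± 0.18). Of 5 measured MHC class II genes, whose products present peptides to helper T cells, 2 rose and 0 fell, where 0.842% of all genes rose. Their median was 1.28, and those that did not pass were H2-Ab1 (1.28), H2-DMa (0.26) and H2-Oa (-0.11). The invariant chain gene Cd74 read 438, 285 and 197 in SRSF1HKO arrays and 163, 165 and 66.0 in WT arrays, a difference of 1.66 ± 0.31 (limma adjusted p = 0.0187). H2-Aa, an alpha chain, read 135, 77.7 and 59.4 in SRSF1HKO arrays and 36.0, 47.1 and 29.6 in WT arrays, a difference of 1.35 ± 0.18 (limma adjusted p = 0.0047). In WT, H2-Aa lay near the middle of each array, at percentiles 54.4, 56.4 and 55.5, so the size of its difference is uncertain. Without SRSF1HKO replicate 1, Cd74 was the 1 member of the list that met both thresholds, where 6.24% of all genes did.

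Macrophages carry MHC class II, and their markers were read beside these genes. Of 11 measured macrophage markers 1 rose, Cd68 (1.81 ± 0.35), and none fell, with a median of 0.50, and 10 of 11 differences were above 0, with groups that overlapped for 6 of the 11. No marker of the list was below the array median in all arrays. The same held for every list read here, after low rows were dropped and the brightest row was kept. It therefore does not show that these markers were expressed. Their summed quantile-normalized intensity ran from 1827 to 2122 in SRSF1HKO arrays and from 1128 to 1335 in WT arrays. The part of such cells in the MHC class II values was not tested, and in a bulk sample a change in the number of cells of a type cannot be told apart from a change in RNA per cell.

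Around Npr2, neither the peptides nor the other cyclases passed. Of 8 measured genes for natriuretic peptides and their processing 0 rose and 0 fell, with a median of -0.06. Nppc, which encodes the C-type peptide that binds Npr2 and was picked for that role outside the naming rule, read 213, 117 and 111 in SRSF1HKO arrays and 203, 259 and 159 in WT arrays (0.02 ± 0.19, limma adjusted p = 0.987). Furin, a protease that cuts the precursors, had -0.23 ± 0.09 (limma adjusted p = 0.261). The peptidase Ide, which breaks natriuretic peptides down, was at 0.999 in limma's adjusted p. Of 9 other guanylyl cyclase genes 0 rose and 0 fell, with a median of -0.07, and those named from it were Gucy2c (0.51 ± 0.46) and Gucy2d (-0.01 ± 0.18).

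Downstream of cGMP and calmodulin, 1 gene moved in each list with all arrays. Of 16 measured cGMP effectors and phosphodiesterases 1 fell and 0 rose, with a median of -0.02. It was Pde1a, a phosphodiesterase that calmodulin activates and that breaks down cGMP and cAMP. It read 21.6, 19.3 and 19.2 in SRSF1HKO arrays and 60.5, 101 and 61.9 in WT arrays, a difference of -0.94 ± 0.15 (limma adjusted p = 0.00978), and -0.86 without SRSF1HKO replicate 1. Without that array 2 genes of the list were lower, Pde1a and Pde1c (-0.50, named after its value was seen). In that comparison 6.24% of all genes were called. Of 16 measured calmodulin genes and partners 1 rose and 0 fell, with a median of -0.08. It was Calml4, a calmodulin-like protein, which read 42.8, 103 and 55.3 in SRSF1HKO arrays and 20.3, 25.4 and 15.7 in WT arrays, a difference of 1.46 ± 0.30 (limma adjusted p = 0.0294). The groups of Pde1a and of Calml4 did not overlap on the deposited values, where 28.0% of all genes had the knockout below WT and 1.69% above it. Pde1a stood at percentiles 39.6, 51.4 and 47.1 of the SRSF1HKO arrays. Calml4 in WT was below the array medians of 31.8, 39.8 and 25.6. Both were thus near background in 1 group, and the size of their differences is uncertain. Counts of 1 of 16 are to be read beside the 2.24% of all genes that passed.

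**Figure D4:**
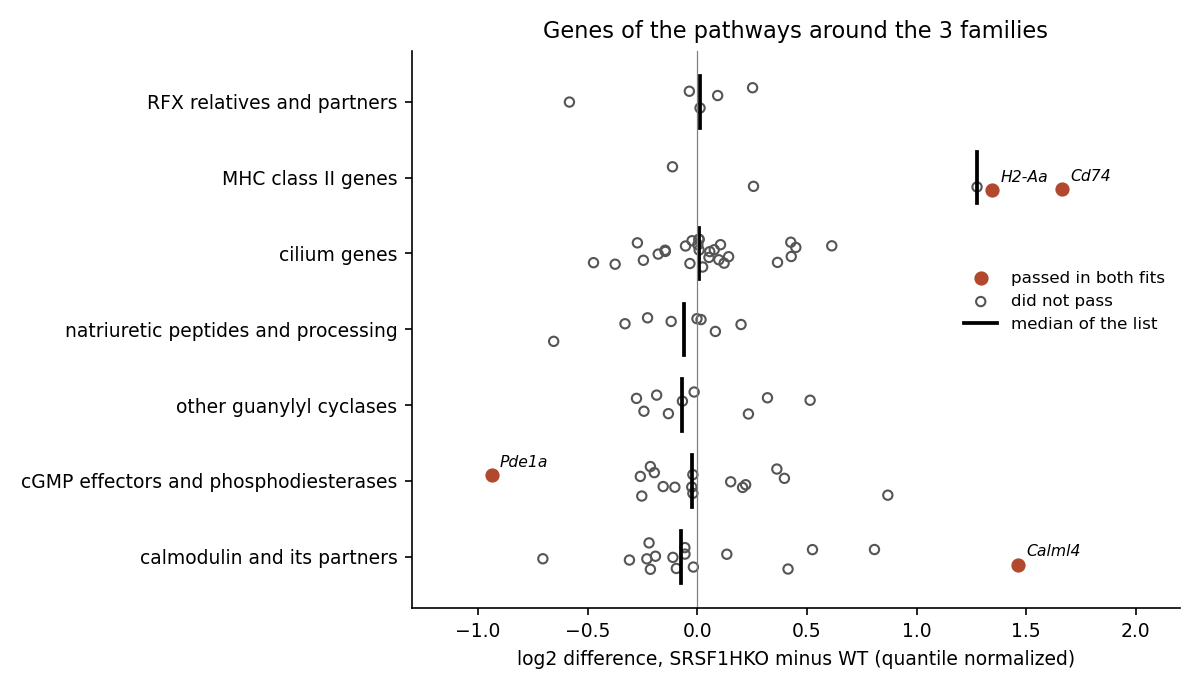
Log2 difference, SRSF1HKO minus WT, after quantile normalization, of each measured gene in 7 lists around the 3 families, with filled points for genes that passed in both fits and bars for the median of the list. Cd74, H2-Aa, Calml4 and Pde1a are the genes that passed, and the medians of the 6 lists other than MHC class II lie between -0.08 and 0.01.

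Markers of the cells the samples could hold were read in the same way. Of 14 measured hepatocyte markers 0 rose and 0 fell, and their summed quantile-normalized intensity was 87664 to 90445 in SRSF1HKO arrays and 91723 to 93041 in WT arrays. Albumin (Alb) read 6937, 10757 and 9491 in SRSF1HKO arrays and 11022, 10035 and 11053 in WT arrays, so the defining marker of the labelled cell type was present in all 6 arrays. Without SRSF1HKO replicate 1, 1 hepatocyte marker was lower and 2 stellate and fibroblast markers, Dcn and Lum (named after their values were seen), were higher. In that comparison 6.24% of all genes were called. Of 14 endothelial, 14 stellate and fibroblast and 5 cholangiocyte markers 0 rose and 0 fell, with medians of -0.02, 0.32 and 0.01. The sums of the endothelial and cholangiocyte lists overlapped between groups, while those of the stellate list ran from 3090 to 4048 in SRSF1HKO arrays and from 2349 to 2807 in WT arrays. Npr1 is known from endothelial cells and Npr2 from fibroblasts, and the part of such cells in these values was not tested.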

How the data were processed

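RNA from mouse hepatocytes of 3 SRSF1HKO and 3 WT samples was measured on exon arrays. The deposited values are linear intensities summarised by the authors with PLIER against mm9, per the submitters' processing notes. Values were taken as log2(intensity + 16) and quantile-normalized over 238609 rows, rows whose mean log2 value was below the 40th percentile were dropped, and the brightest row annotated with 1 symbol stood for a gene (19123 genes). The test was limma 3.58.1 (R 4.3.3; lmFit, eBayes with trend), run on these and on the deposited values, with Benjamini-Hochberg adjustment over all genes. The genes and lists were chosen with earlier results of these data known. From each list the text names at most 4 genes that passed in both fits or, where none passed, at most 2 of the highest mean signal, and for Pcp4l1, Rfx4 and Npr2 the 5 genes nearest in pattern, without unnamed gene models and olfactory or vomeronasal receptors. Intensities have no true zero, and the number of arrays limits the precision. Code was tested on simulated data. Promoters came from RefSeq (GRCm38.p6). Coordinates of array rows were not used. Alternatives are given in the closing section.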

Additional observations from a re-analysis of the deposited data

How the results depend on the processing

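Against 428 genes called (267 lower, 161 higher), the deposited values alone gave 1489 (1311 lower, 178 higher), median scaling 194 (50 lower, 144 higher) and the quantile-normalized fit alone 792 (270 lower, 522 higher). That fit without SRSF1HKO replicate 1, an alternative chosen after seeing the data, gave 2889 (1030 lower, 1859 higher). Leaving out 1 array at a time gave 168 to 1193 genes called, 84 to 1010 lower and 83 to 183 higher, with the highest count without SRSF1HKO replicate 1 and the lowest without WT replicate 1. The difference of Pcp4l1 was -2.44 with a pseudocount of 64, and -3.42 to -2.91 with 1 array left out. That of Rfx4 was -2.50 and -1.28 with pseudocounts of 1 and 64, -2.39 on the deposited values, and -2.07 to -1.92 with 1 array left out. That of Npr2 was -2.64 to -1.49 with 1 array left out, and the extreme nearest 0 was without SRSF1HKO replicate 1. Npr2 was called in 5 of 17 alternatives, among them the pseudocount of 64, the deposited values and those without SRSF1HKO replicate 1 or 3. These calls are a description, since this contrast chose Npr2. Rfx2 passed at -0.40 without SRSF1HKO replicate 1, and Rfx5 reached 0.46 there in the quantile-normalized fit alone. Over 17 alternatives the sign turned for Rfx2 in 2, Rfx5 in 1, Npr1 in 6 and Npr3 in 4, and for none of the other members. The cause was not tested. No paired analysis was possible because the replicate numbers are only names given in accession order.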

Other observations

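The array held further rows for some of these genes that the main fits did not use. A row annotated with both Igsf5 and Pcp4 read 288, 341 and 279 in SRSF1HKO arrays and 446, 458 and 338 in WT arrays. A second row of Npr3 read 20.1, 15.2 and 20.3 in SRSF1HKO arrays and 31.7, 33.7 and 23.1 in WT arrays. This row entered the alternative that took the median of the rows of a gene, where the difference of Npr3 was -0.03. A second row of Rfx5 read 6.30, 3.76 and 1.74 in SRSF1HKO arrays and 7.62, 8.47 and 12.1 in WT arrays.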
